A study of Mus musculus with 7 samples.

Results

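Circadian clock and clock output transcripts were followed in the livers of newborn mice with and without glycerol kinase. The set holds 10 genes by name, which are Arntl and Npas2 of the positive arm, Per1, Per2, Per3, Nr1d1 and Nr1d2 of the negative arm, and the output factors Dbp, Tef and Nfil3. Every probe set whose platform annotation gives one of these as its only gene symbol was taken, which found 23 probe sets for 10 of 10 genes, among 18193 genes with a probe set of their own. The livers came from male C57BL/6J pups on day of life 1, with 3 wild type littermates and 4 glycerol kinase knockouts, and each liver was hybridised to 1 Affymetrix Mouse Genome 430 2.0 array. Glycerol kinase turns glycerol into glycerol 3-phosphate, and per the series' design text the knockout pups show no signs of its deficiency at this age. The knockout allele, the litters and the hour at which livers were taken are not given in the sources used here.

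The mammalian clock is a feedback loop of transcription. BMAL1, the product of Arntl, pairs with CLOCK or NPAS2 and drives genes through E-box elements, among them the period genes and the REV-ERB receptor genes Nr1d1 and Nr1d2. Period proteins repress that pair, and the REV-ERB receptors repress Arntl through ROR elements. DBP, TEF and HLF, factors of the PAR bZIP family, carry the rhythm to liver genes through D-box elements, which NFIL3 binds as a repressor. In adult liver these transcripts swing strongly over the day.

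The differences closest to or past the threshold lay among the output factors. Dbp rose in knockout liver by 0.94 ± 0.22 on the log2 scale (standard error), a 1.92-fold higher level, and it was the one gene of the set past the threshold (limma, adjusted p = 0.0449). Its probe set entered the test through the knockout group, and without the level filter described below its adjusted p was 0.106 (limma). Tef at 0.67 ± 0.19 and Nfil3 at -0.54 ± 0.18 did not pass (limma, adjusted p = 0.0788 and 0.113), although in both genes the livers of the groups did not overlap. No probe set of Arntl, Npas2, Per1, Per2, Per3, Nr1d1 or Nr1d2 passed. The threshold is an adjusted p under 0.05 over all tested probe sets, and a fold change is knockout minus wild type in log2(intensity + 16), a scale that shrinks the change of a dim probe set.

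**Figure D1:**
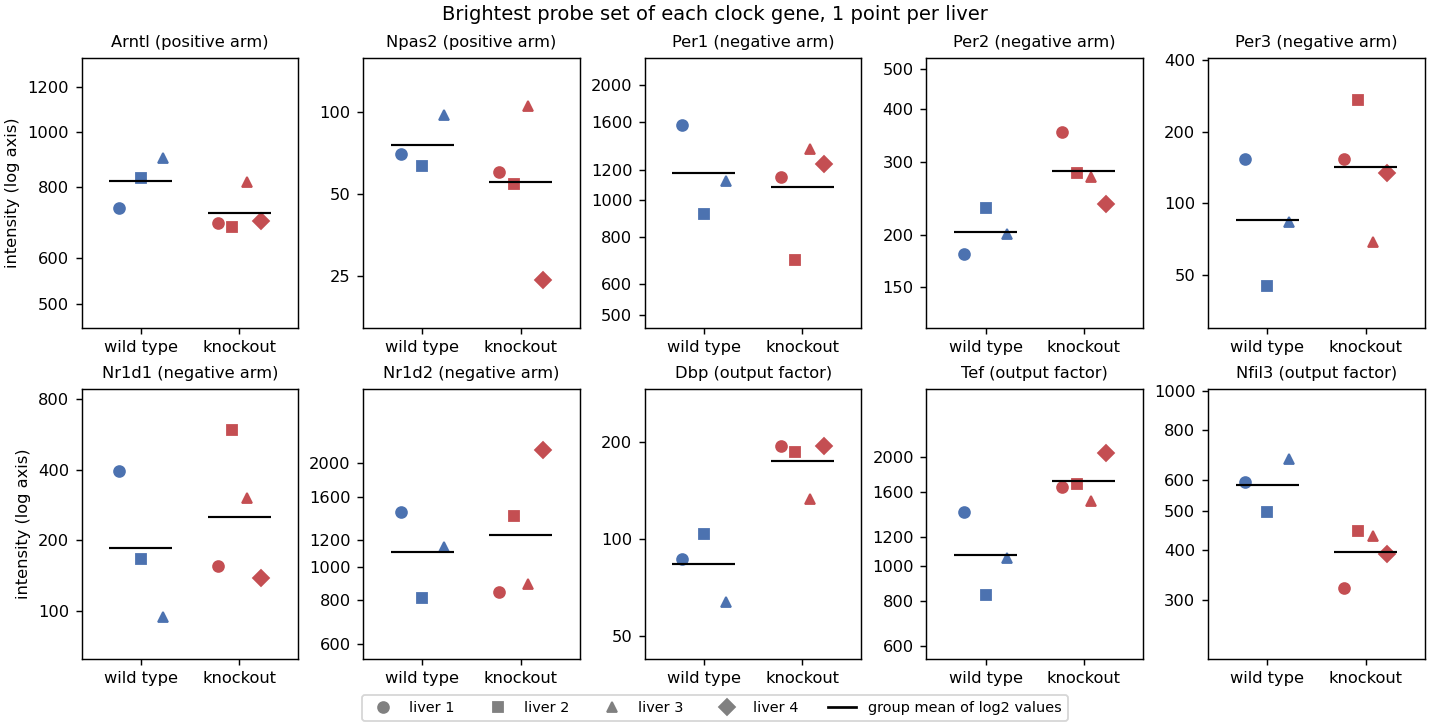
Intensity (log axis) of the brightest probe set of each of the 10 genes, 1 point per liver, with symbols for the liver number and a line at the mean of the log2 values. Knockout livers lie above every wild type liver for Per2, Dbp and Tef and below every wild type liver for Nfil3, and the groups overlap in the other 6 genes.

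Of 22518 tested probe sets 955 passed, or 4.24%, 2.35% higher and 1.89% lower in knockout. Against that background stood 1 of 13 tested probe sets of the set, a probe set of Dbp. Over all 23 probe sets, tested or not, the groups did not overlap in 5, with 4 higher and 1 lower in knockout. Over all 45037 probe sets without a filter the groups did not overlap in 14.2%, with 6.14% higher and 8.11% lower. The median log2 fold change was 0.16 over the 23 and -0.03 over the 45037. Only probe sets with a mean level above the median of all, an intensity of about 98.0, were tested, so 10 of the 23 were left out and Npas2 has none that was tested. Of the 13 tested, 4 had only their knockout mean above that level, 1 each of Dbp and Tef and 2 of Per3. These entered the test through the group in which they were higher, so the count over the 13 supports nothing about the set. The count of 955 moved with the livers used. Dropping wild type 1, 2 or 3 left 341, 288 or 127 calls, and dropping knockout 2 or 4 left 514 or 375. Of all calls 55.4% were higher in knockout, and with equal array medians 71.3% of 759 were. The directions given for Dbp, Tef, Nfil3 and Hlf were the same under both other scalings.

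Medians of the arrays ran from 92.7 to 108.3, arrays correlated at r from 0.930 to 0.985 over tested probe sets, and knockout 3 had the highest 3' to 5' ratio of the 7 arrays for 4 of 4 control transcripts, for example 11.1 against 7.22 to 8.24 for the transferrin receptor. Hepatocyte markers stood at 8609 or more in the mean of either group in 4 of 4 measured genes, and 0 of them passed. Markers of red cell precursors moved with the groups. All 6 measured markers had a lower mean in knockout and 2 passed, Slc4a1 and Rhag, and the summed intensity of the 6 was 51317 to 55768 in knockout against 63061 to 70811 in wild type. Klf1 among them was nearly level, at -0.03 ± 0.14. Other lists leaned one way with 0 markers passing. In knockout 4 of 4 B cell precursor markers were higher, and 4 of 4 megakaryocyte, 6 of 7 neutrophil and 4 of 5 endothelial markers lower. In whole liver, fewer cells of a type and less RNA per cell cannot be told apart, and the part of red cell precursors in the values of the clock genes was not tested. The sum of the T cell markers was also lower in every knockout liver, at 46.0 to 79.3 in knockout against 93.7 to 121.8 in wild type, with Cd3d and Cd3g under an intensity of 50 on every array. Of the 3 T cell markers 2 had a lower mean in knockout and 1, Cd3d, a higher one, and 0 of them were tested.

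Dbp, whose protein activates D-box genes, had an s-type probe set, a type whose probes can match several transcripts. On that probe set, 1438211_s_at, wild type livers 1 to 3 read 86.9, 103.3 and 64.1, and knockout livers 1 to 4 read 193.8, 186.1, 133.3 and 193.1. Each knockout liver exceeded each wild type liver, with knockout 3 the lowest of the knockouts. Its wild type mean of 84.8 ± 19.7 (SD, n = 3) was below the filter level and its knockout mean of 176.6 ± 29.1 (SD, n = 4) above it, so it entered the test through the knockout group. The second probe set, 1418174_at, read 22.1, 45.6 and 37.5 in wild type and 94.8, 111.3, 100.7 and 136.0 in knockout, again with no overlap. All 3 wild type values were under an intensity of 50, so the size of its difference is uncertain. It lay below the filter, and in a fit of all probe sets without a filter its log2 fold change was 1.33 ± 0.27 (limma, adjusted p = 0.0536). The call of Dbp was marginal. Leaving out 1 liver kept the log2 fold change between 0.78 and 1.07, but the adjusted p rose to 0.107, 0.0834 or 0.189 when wild type 1, 2 or 3 was dropped and to 0.0750, 0.0857 or 0.102 when knockout 1, 2 or 4 was. Only the run that dropped knockout 3 kept the call, at 0.0293. The fit without a filter gave 0.106.

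Tef encodes a second activator of the PAR bZIP family. On its brightest probe set, 1424175_at, wild type livers read 1410.0, 828.6 and 1047.2 and knockout livers 1646.5, 1685.0, 1507.4 and 2057.0. The groups did not overlap, with wild type 1 and knockout 3 the closest pair. The next probe set, 1450184_s_at, also entered the test through the knockout group. It was at 0.92 ± 0.32 (limma, adjusted p = 0.128, or 0.243 without a filter), with wild type 1 at 108.5 above knockout 3 at 93.2. The dimmest one, 1438033_at, ran from 47.3 to 81.3 over all livers and had the opposite sign, at -0.22 ± 0.26 without a filter. Leaving out 1 liver moved the brightest probe set of Tef between 0.49 and 0.87, and it passed in 0 of 7 such runs.

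Nfil3, which encodes the repressor at D-box elements, went the other way. Wild type livers read 590.7, 496.5 and 674.9, and knockout livers read 320.1, 446.4, 433.7 and 390.6. Each knockout liver was below each wild type liver, with knockout 1 the lowest. Leaving out 1 liver kept its log2 fold change between -0.66 and -0.44, and it passed in 0 of 7 such runs.

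Hlf, another PAR bZIP gene, is not one of the 10 and comes from the list of other clock genes. It rose by 1.16 ± 0.24 on probe set 1434736_at (limma, adjusted p = 0.0315), from 463.6, 520.1 and 427.9 in wild type to 1197.5, 1540.9, 678.5 and 1048.8 in knockout. The groups did not overlap, and knockout 3 was the lowest knockout, as on the brightest probe set of Dbp but not on its dimmer one. The other probe set of Hlf was at 0.72 ± 0.22 without overlap and did not pass (limma, adjusted p = 0.0902). There knockout 4 was the lowest knockout, at 344.5 against 353.8 in knockout 3. The call of Hlf was lost when wild type 1, 2 or 3 was dropped, at adjusted p of 0.0921, 0.0820 and 0.140, when knockout 2 or 4 was, at 0.0565 and 0.0725, and in the fit with no filter, at 0.0553.

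**Figure D2:**
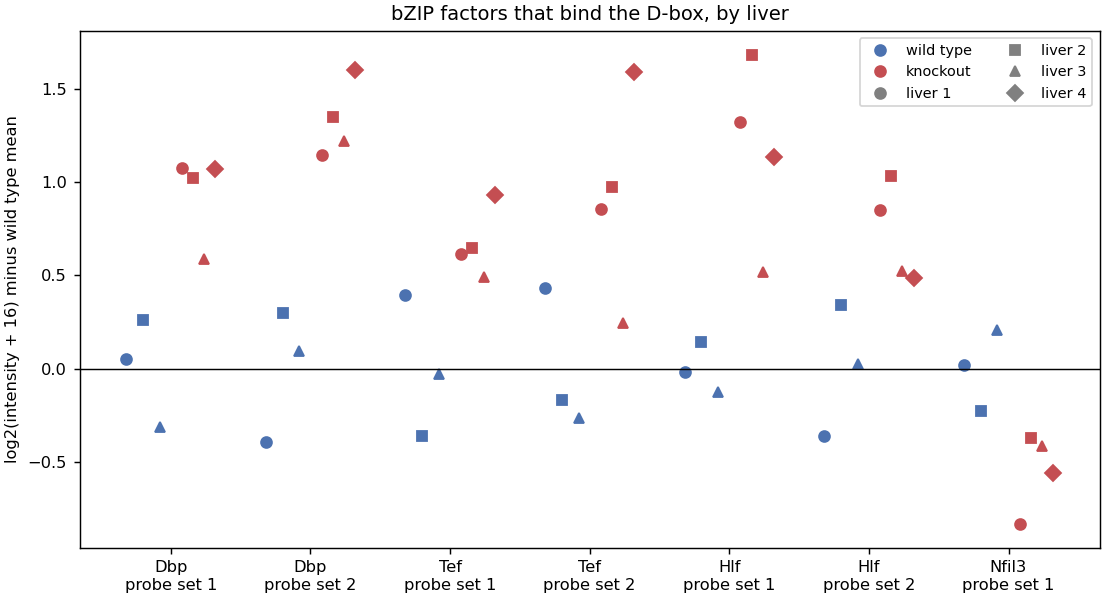
Level of each liver relative to the wild type mean, in log2(intensity + 16) units, for Dbp, Tef, Hlf and Nfil3, with probe sets numbered from the brightest and the dimmest probe set of Tef left out. Knockout livers (red) lie above all wild type livers (blue) on both probe sets of Dbp and Hlf and the first of Tef, overlap them on the second of Tef, and lie below them for Nfil3.

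The genes most like Dbp over the 7 livers were sought among 19580 tested probe sets of other named genes, by the mean absolute difference between profiles that had each been set to a mean of 0. The closest was Slc40a1, the iron exporter ferroportin, at 0.08 log2 units, then Lpgat1, a lysophospholipid acyltransferase, at 0.08, Parp9 at 0.12, the BMP receptor gene Bmpr1a at 0.13 and the ubiquitin ligase gene Mgrn1 at 0.13. The median difference over all was 0.51. Their log2 fold changes lay between 0.78 and 0.88, and 5 of 5 were past the threshold, as a profile like that of Dbp entails.

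In the positive arm, Arntl was nearly level. Its brightest probe set, 1425099_a_at, read 736.2, 829.7 and 898.6 in wild type and 692.3, 680.6, 818.4 and 698.4 in knockout. Knockout 3 reached into the wild type range while the other 3 knockouts lay below it, and the log2 fold change was -0.18 ± 0.15 (limma, adjusted p = 0.515). The second probe set of Arntl, with means of 166.2 and 163.5 in wild type and knockout, was at 0.00 ± 0.26. Npas2, which can stand in for CLOCK, was dim. Its brighter probe set read 70.0, 63.4 and 97.6 in wild type and 60.3, 54.3, 105.4 and 24.1 in knockout, and the groups overlapped. Without a filter it was at -0.36 ± 0.37 (limma, adjusted p = 0.731), and the dimmer one at -0.04 ± 0.42.

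Per2 was the negative arm gene whose groups came apart, on 1 of 3 probe sets. That probe set, 1417602_at, read 180.3, 232.1 and 200.9 in wild type and 353.8, 281.2, 276.2 and 237.0 in knockout. Knockout 4 lay only just above wild type 2, and the log2 fold change of 0.45 ± 0.19 did not pass (limma, adjusted p = 0.193). The 2 other probe sets of Per2 were at 0.10 ± 0.24 and, below the filter, at 0.32 ± 0.28, with overlap in both. Per1 read 1567.3, 915.6 and 1119.9 in wild type and 1150.3, 692.9, 1357.2 and 1240.7 in knockout. The groups of Per1 overlapped, and the value of -0.12 ± 0.25 changed sign without wild type 1 (0.09) or knockout 2 (0.09).

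Per3 was measured by 6 probe sets, all dim. On the brightest, 1458176_at, wild type livers read 153.2, 45.1 and 83.4, and knockout livers read 154.3, 272.1, 69.1 and 134.4. Both groups spanned a wide range and overlapped, and the log2 fold change was 0.65 ± 0.43 (limma, adjusted p = 0.408). Of the 6 probe sets 4 had a positive and 2 a negative difference. The 2 that were tested, at 0.65 and 0.67, both entered through the knockout group, as their wild type means were below the filter level. The leave-one-out range of the brightest was 0.29 without wild type 2 to 1.02 without wild type 1.

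The REV-ERB genes varied widely within both groups. Nr1d1 read 395.4, 167.2 and 94.0 in wild type and 155.2, 589.1, 304.0 and 137.7 in knockout, a 6.27-fold span that was widest between knockout 2 and wild type 3. Its log2 fold change was 0.40 ± 0.52 (limma, adjusted p = 0.706). It turned to -0.04 without wild type 3 and was 0.007 without knockout 2. Nr1d2 read 1445.2, 814.4 and 1142.4 in wild type and 846.6, 1408.2, 894.4 and 2185.9 in knockout. Knockout 4 stood highest and wild type 2 lowest, and the value of 0.16 ± 0.32 (limma, adjusted p = 0.817) was -0.05 without wild type 2 and -0.11 without knockout 4. These values are from the brighter of 2 probe sets of Nr1d2. The dimmer one, 1416959_at, lay below the filter and ran from 10.4 in knockout 3 to 204.2 in knockout 4. Without a filter its difference was -0.05 ± 0.61.

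**Figure D3:**
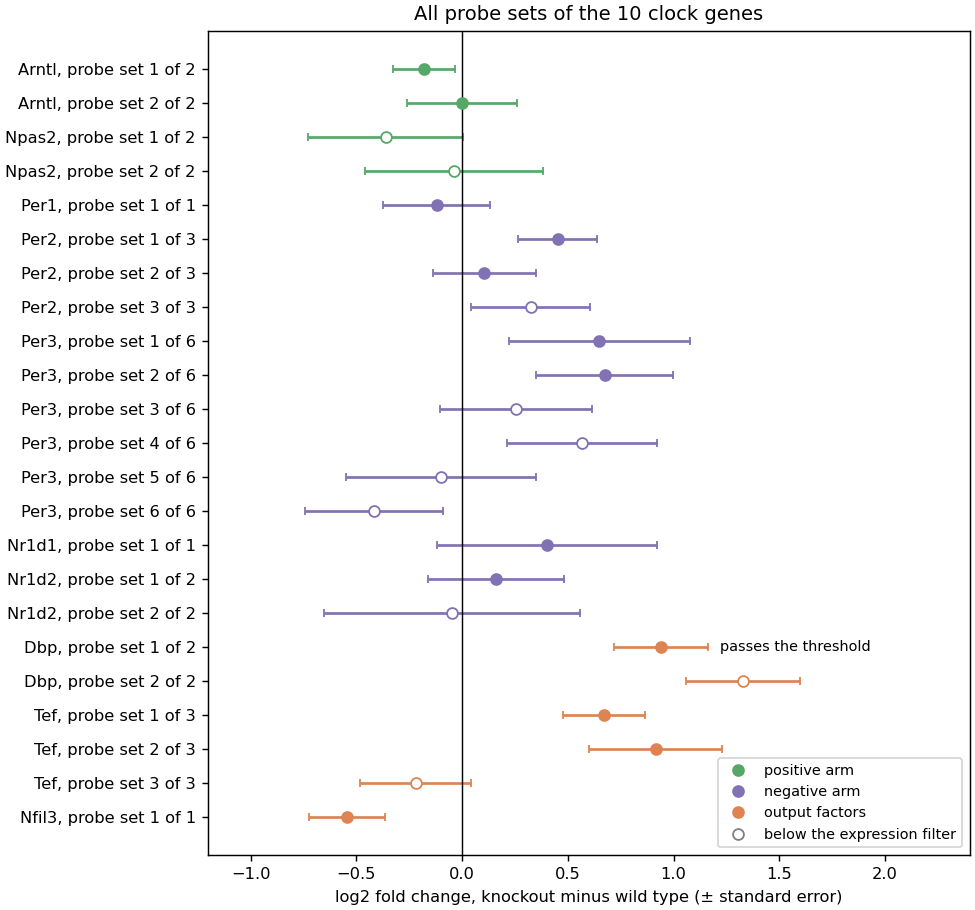
Log2 fold change, knockout minus wild type, with its standard error for all 23 probe sets, numbered within each gene from the brightest and coloured by role. Filled points were tested above the expression filter and open points come from the fit without a filter. The probe sets of Dbp, the first 2 of Tef and that of Nfil3 lie farthest from 0 relative to their errors.

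The spread between livers of one group varied widely among the brightest tested probe sets of the genes. The within-group SD of Nr1d1 was 0.93 log2 units, above 98.6% of the 1000 tested probe sets nearest to it in level. Per3, on its brightest probe set, and Nr1d2 followed at 96.9% and 96.2%, and Per1 stood at 88.7%. The lower part of that order held Arntl at 10.4%, Per2 at 24.7%, Dbp at 31.5% and Nfil3 at 36.4%, with Tef at 71.2%. The order is one of probe sets and did not hold across those of a gene. On the next tested probe set Arntl stood at 70.0%, Per2 at 45.8%, Per3 at 86.0% and Tef at 85.6%. These percentiles describe 7 livers and carry no test.

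Promoter sequences from RefSeq (build GRCm38.p6) are shown for the members whose start region holds one of the elements named above, since D-box elements are where DBP, TEF, HLF and NFIL3 act. The table gave 12 windows of 300 bases for 9 of the 10 genes, from 250 before to 50 after a start. Both strands were searched for the D-box as TTATGTAA, TTACGTAA or TTATGCAA, which 1.78% of all 32851 windows hold, for the E-box CACGTG (7.15%), for a variant E-box CACGTT (4.68%) and for the ROR element (0.773%). No matches overlapped one another. Per3 holds 2 D-boxes and Per1 an E-box and a D-box, both starts of Tef hold an E-box, Nr1d1 holds a variant E-box, and Arntl holds a ROR element just after a start. Capitals mark the matches.
Per3, chr4:151044796-151044890, minus strand: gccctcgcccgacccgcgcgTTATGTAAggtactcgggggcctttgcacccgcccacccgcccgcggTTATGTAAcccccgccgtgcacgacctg
Per1, chr11:69098763-69098948, plus strand: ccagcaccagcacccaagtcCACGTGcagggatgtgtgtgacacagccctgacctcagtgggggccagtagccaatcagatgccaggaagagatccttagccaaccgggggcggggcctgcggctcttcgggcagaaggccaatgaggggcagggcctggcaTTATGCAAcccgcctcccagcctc
Tef, first start, chr15:81802526-81802571, plus strand: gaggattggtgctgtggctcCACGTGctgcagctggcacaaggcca
Tef, second start, chr15:81811256-81811301, plus strand: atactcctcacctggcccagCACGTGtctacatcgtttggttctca
Nr1d1, chr11:98775380-98775425, minus strand: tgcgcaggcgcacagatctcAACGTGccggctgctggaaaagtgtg
Arntl, chr7:113207528-113207557, plus strand: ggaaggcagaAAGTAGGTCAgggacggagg

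The D-boxes of Per3 begin 205 and 158 bases before the start and that of Per1 begins 24 bases before it. The values of these D-box holders were given above: neither Per1 at -0.12 nor Per3 at 0.65 passed. The window of Dbp held none of these elements, which says only that their letters are not in this window.

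Among the other clock genes, a list of 25 of which 22 had a probe set and 17 were tested, Hlf was the one whose brightest probe set passed, 1 higher and 0 lower. That is 5.88% of the 17, near the 4.24% of all tested probe sets. The median log2 fold change was 0.03. Over the 70 probe sets of the list, tested or not, the groups did not overlap in 13, or 18.6%, against 14.2% of all 45037. Clock, the partner of BMAL1, was at 0.23 ± 0.19 on its brightest probe set and Rora, an activator of Arntl at ROR elements, at -0.30 ± 0.25, both without passing. Of the repressors, Cry1 read 339.3, 325.1 and 324.0 in wild type and 433.7, 354.1, 454.0 and 444.8 in knockout without overlap, at 0.34 ± 0.16 (limma, adjusted p = 0.246). Cry2 at -0.67 ± 0.32 and Bhlhe40, a repressor at E-boxes, at -0.45 ± 0.19 had overlapping groups (limma, adjusted p = 0.255 and 0.213). Btrc, a ubiquitin ligase part that marks period proteins for breakdown, fell by 0.76 ± 0.18 on the log2 scale on probe set 1457305_at (limma, adjusted p = 0.0484), while its brightest probe set was at -0.24 ± 0.15 and did not pass. The call of Btrc was lost under median scaling, at 0.0706, without a filter, at 0.101, and without any 1 liver except knockout 1, with adjusted p from 0.0673 to 0.188.

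Of 15 genes known as rhythmic outputs of the clock in liver, 13 had a probe set and 12 were tested, and 0 passed with limma. At an unadjusted p under 0.05 (limma) there were 5 of the 12 by their brightest probe set. Over all tested probe sets of the list there were 8 of 29, against 21.7% of all tested probe sets. Over the 12 genes the median log2 fold change was -0.26, with 5 positive and 7 negative. With 1 probe set a gene, the brightest, the closest to the threshold were Nr1i3, the nuclear receptor CAR, at 0.61 ± 0.23 (adjusted p = 0.155), Lpin1, a phosphatidate phosphatase, at -1.24 ± 0.47 (adjusted p = 0.160) and Insig2, which holds back lipid synthesis, at -0.54 ± 0.23 (adjusted p = 0.204). Nr1i3 was higher in every knockout, at 1006.2 to 1356.5 against 503.0 to 1002.5, and Lpin1 lower in every knockout, at 1930 to 10019 against 11260 to 15816. Over the 30 probe sets of the list, tested or not, the groups did not overlap in 4, or 13.3%. That is near the 14.2% of all 45037 probe sets. The difference of Nr1i3 was 0.32 once wild type 1 was dropped (limma, adjusted p = 0.382), and that of Lpin1 was -0.71 once knockout 2 was dropped (limma, adjusted p = 0.0807). Among all probe sets of the list, 1437751_at of Ppargc1a and 1417980_a_at of Insig2 had smaller adjusted p values without passing (limma, 0.103 and 0.118).

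**Figure D4:**
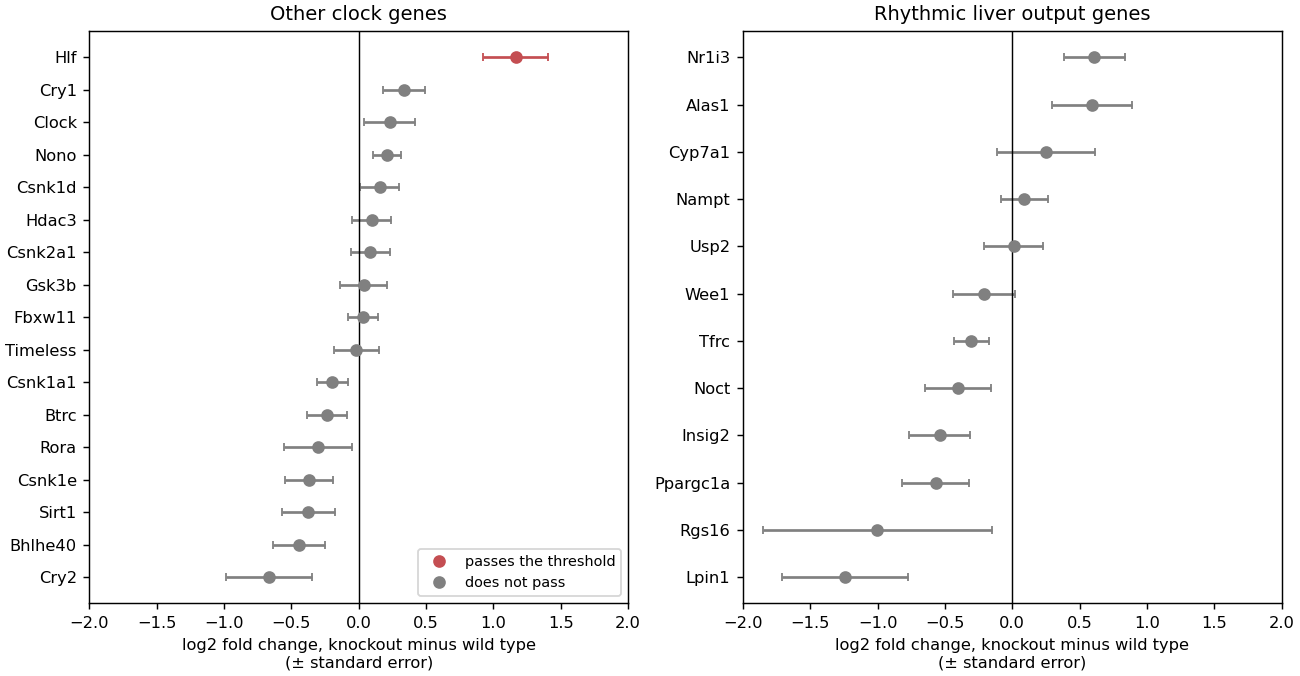
Log2 fold change, knockout minus wild type, with its standard error for the brightest probe set of 17 other clock genes (left) and 12 rhythmic liver output genes (right). Hlf (red) passes the threshold at 1.16, and the other genes (gray) do not.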

How the data were processed

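RNA came from single livers per the labels' protocols, so each array is a separate animal. The authors deposited an intensity on a linear scale for every probe set of each array. Per the submitters' processing notes the software was GCOS, with no version named, and no source used here says how probes were summarised. Without its lowest and highest 2% of values, each array had a mean of 500.003, so the deposited intensities were already scaled to one target and cannot show a change of total RNA. Array medians of log2(intensity + 16) differed by under 0.2, and no further scaling was applied. Of 45101 probe sets 64 controls were dropped, and those with a mean above the median of the rest were fitted with limma 3.58.1 (R 4.3.3, lmFit, eBayes with a trend) and adjusted by Benjamini-Hochberg over all of them. Errors are standard errors of fold changes or SDs over livers, and the number of arrays limits the precision. A gene is represented by its brightest probe set. The members and lists were chosen with earlier results of these data known. The text names all 10 members, each called gene of the other lists and up to 3 more of smallest p per list. From the clock lists Clock, Rora, Ppargc1a and Rgs16 are also named, outside this rule. The fit was tested on simulated data. Alternatives covered the offset, scaling, filter, variance model, each array left out, replicate numbers as a block, the probe set of a gene and the threshold. The targeted gene's own transcript is not reported, and so the labels were not checked against it. Plots were drawn with matplotlib 3.10.9.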

Additional observations from a re-analysis of the deposited data

Results flagged for a closer look

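Each knockout group of 4 livers was screened for a liver far from the others, on 31 probe sets, and chance marks about 1 in 20 groups. The marks given below are near the number that chance would give. In Arntl, probe set 1425099_a_at, knockout 3 lay above the other knockouts, at a log2 level of 9.70 (intensity 818.4 against 680.6 to 698.4). In Dbp, probe set 1438211_s_at, knockout 3 lay below the other knockouts, at a log2 level of 7.22 (intensity 133.3 against 186.1 to 193.8), and still above the highest wild type liver at 103.3. The other probe set of each gene did not show the same. On that of Arntl knockout 2 was highest, at 208.7 against 155.9 in knockout 3. On that of Dbp knockout 1 was lowest, at 94.8 against 100.7 in knockout 3. Without knockout 3 the log2 fold change of the marked probe set was -0.24 for Arntl (limma, adjusted p = 0.368) and 1.06 for Dbp (limma, adjusted p = 0.0293). Knockout 3 was also the array with the highest 3' to 5' ratios of the control transcripts, whose part in these values was not tested.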

How the results depend on the processing

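Over all probe sets 955 passed, 584 with eBayes without a trend, 473 without a filter, 351 with the replicate block and 127 to 1006 with 1 liver left out. Of the 10 members 1 passed, Dbp, and 2 at an adjusted p under 0.1, Dbp and Tef. The count was 0 without a filter, 0 with the filter at the 60th percentile, which left Dbp untested, 0 with the replicate block (Dbp at 0.90, limma, adjusted p = 0.0968), and 0 to 1 with 1 liver left out. Of the other clock genes 1 passed, Hlf, also with the replicate block, and 2 by the probe set of smallest p, Hlf and Btrc (Btrc not with the block, limma, adjusted p = 0.125), with 0 without a filter and 0 to 1 with 1 liver left out. Of the liver output genes 0 passed under any alternative run. The replicate block drops knockout 4, which has no partner, and the numbers are not known to pair the livers: same-numbered deviations correlated at 0.09, -0.06 and 0.06. Of 17 named probe sets 3 changed sign, none of them called: with 1 liver left out Per1 ranged from -0.30 to 0.088 on the log2 scale, Nr1d1 from -0.039 to 0.91 and Nr1d2 from -0.11 to 0.35, and Nr1d2 was at -0.11 under the replicate block. Fewer livers also give less power. Between 35.4% and 39.4% of an array's probe sets lay under an intensity of 50, where 1 of 2 probe sets of Npas2 and 2 of 6 of Per3 had their means in both groups and the dimmer one of Dbp its wild type mean.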

Other observations

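Rgs16, a regulator of G protein signalling and a rhythmic liver transcript, was singled out after its values were seen. Its brightest probe set read 1251.0, 735.3 and 1300.4 in wild type and 67.8, 609.4, 673.9 and 2313.2 in knockout, and its within-group SD of 1.57 log2 units exceeded 99.9% of the 1000 tested probe sets nearest in level. Knockout 1 was the lowest and knockout 4 the highest of the knockouts on 3 of 3 probe sets. In Lpin1 it was knockout 2 that stood lowest, at 1930 against 6498 to 10019 in the other knockouts. The 2 output genes thus had their lowest values in different livers.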
